A study of Mus musculus with 3 samples.

Results

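The genes described here are the 50 proteasome genes of the mouse whose symbols begin with *Psma*, *Psmb*, *Psmc*, *Psmd*, *Psme*, *Psmf* or *Psmg* followed by a number. They were taken by symbol from the 36593 genes in the 3 deposited count files, 4 pseudogene symbols (*Psmb5-ps*, *Psmb6-ps*, *Psmb6-ps2* and *Psmb7-ps2*) were left out, and all 50 had unique molecular identifier (UMI) counts in each file. The symbol rule also takes *Psmc3ip* (Hop2), a meiotic recombination factor that is not a proteasome subunit, but it is counted among the 50 members wherever members are counted. The annotation GENCODE M21 places the 50 genes on 16 chromosomes of the build GRCm38.

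Single cells of the testis were profiled by droplet RNA sequencing in 3 libraries of C57BL/6 mice. The somatic-enriched library came from *Ddx4-creER; R26tdTomato* mice aged 8 weeks, in which tamoxifen marks germ cells with the Tomato protein and Tomato+ cells were sorted away. The control library came from *Scf fl/fl* mice aged 6 weeks, and the cKO library from *Amh-cre; Scf fl/fl* mice of the same age, in which Cre acts in Sertoli cells to delete *Scf*, the gene of stem cell factor. Haploid cells were depleted by flow cytometry from the control and cKO samples, so the spermatids in these libraries are those that passed that sort, and the germ cells of the Tomato-negative library are those that escaped depletion. Each group is 1 library, and the sources used here name several mice per group without tying cells to mice, so no test between animals was possible, all intervals are 95% intervals that cover counting error only, and differences are reported by their size.

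The libraries held 195380762 UMIs in 7626 Tomato-negative cells, 90453018 UMIs in 6264 control cells and 68602272 UMIs in 7252 cKO cells, with medians of 9699, 5922 and 6254.5 UMIs per cell. The deposited file of the somatic-enriched sample also carried all 6264 control cells, with 0 differing values, and 149 cells that carry cKO barcodes, with 5448 values that differ from the cKO file. These 149 cells took part in the clustering of that file, but no level below uses the values of that file for them. Between libraries, 9 barcodes of Tomato-negative cells also occurred in the control, 13 in the cKO library, and 15 barcodes were shared by control and cKO. The targeted gene, listed as *Kitl*, stood at 3.8 counts per 1000000 (CPM) over all kept control cells, 17.3 CPM in Tomato-negative cells and 55.1 CPM in cKO cells. No Sertoli class was found in the control or cKO library, so the deletion in Sertoli cells could not be checked. In *Tcf21* stromal cells, *Kitl* was at 329.8 CPM in the control and 314 CPM in the cKO library.

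Cells were clustered without the 50 genes and the clusters named from markers. A class name below therefore means a class like that cell type. In the order of germ cell development, the control library held 375 undifferentiated spermatogonia, 1738 differentiating spermatogonia, 1474 early spermatocytes, 934 late spermatocytes, 251 round spermatids and 153 elongating spermatids. The Tomato-negative library held 430, 1326, 102, 485, 193 and 269 of these. A further cluster of 712 Tomato-negative and 68 control cells, with early spermatocytes as its best match, was left unnamed and out of these classes. Median UMIs per cell ranged from 2752 in elongating spermatids to 46287.5 in late spermatocytes of the control. Levels are CPM of all UMIs of a class. The method counts transcript ends, so levels were not divided by gene length, and different genes are set against each other only as shares of counts.

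The proteasome degrades proteins that carry ubiquitin chains. Its barrel, the 20S core, is built of alpha rings (*Psma* genes) that gate the entry and beta rings (*Psmb* genes) that hold the cutting sites, and the 19S cap (*Psmc* and *Psmd* genes) recognizes, unfolds and feeds in substrates. Germ cells make a spermatocyte form of an alpha subunit, PSMA8, and cells exposed to interferon gamma exchange the cutting subunits for the immune forms PSMB8, PSMB9 and PSMB10, while the activators PSME1 to PSME4 can dock onto the core in place of the cap.

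The cutting sites lie in PSMB5, PSMB6 and PSMB7, and the results on immune forms turn on how many counts these genes have beside *Psmb8*, *Psmb9* and *Psmb10*. The stretches before the start sites of the standard genes *Psmb5* and *Psmb6* and of the immune gene *Psmb10* are shown to put letters beside these genes. They are RefSeq sequences on GRCm38.p6, read in the direction of transcription, with bases inside any annotated exon left out. *Psmb5* spans chr14:54618023-54618245 on the minus strand and ends 27 bases before the start, *Psmb6* spans chr11:70525107-70525356 on the plus strand and ends at the start, and *Psmb10* spans chr8:105938445-105938642 on the minus strand and ends 52 bases before the start. Capitals mark matches to TGACNNNGC, a spelling of the antioxidant response element.
Psmb5: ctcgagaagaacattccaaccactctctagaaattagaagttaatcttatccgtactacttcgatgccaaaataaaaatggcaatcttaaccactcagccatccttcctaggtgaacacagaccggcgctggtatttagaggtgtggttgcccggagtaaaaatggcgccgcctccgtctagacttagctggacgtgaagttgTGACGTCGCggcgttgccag
Psmb6: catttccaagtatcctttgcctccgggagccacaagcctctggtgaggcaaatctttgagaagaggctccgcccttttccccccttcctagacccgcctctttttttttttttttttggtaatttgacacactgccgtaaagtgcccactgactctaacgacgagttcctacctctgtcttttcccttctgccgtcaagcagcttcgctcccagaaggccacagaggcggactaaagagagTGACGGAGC
Psmb10: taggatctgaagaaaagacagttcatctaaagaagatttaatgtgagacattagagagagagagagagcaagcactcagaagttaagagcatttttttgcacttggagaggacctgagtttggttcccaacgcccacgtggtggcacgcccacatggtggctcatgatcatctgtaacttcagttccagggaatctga
Of the 42 members with a RefSeq promoter, 5 held TGACNNNGC on either strand within 250 bases before the start (*Psmb5*, *Psmb6*, *Psmc6*, *Psmd12* and *Psmd9*). That is 11.9%, against 10.2% of all 32851 promoters. The interferon response element, searched as GAAA repeated after a gap of 2 bases, occurred in 3 of 42 members (7.14%), namely *Psmb3*, *Psmd4* and *Psmd9*, against 2.98% of all promoters. TTCNNNGAA, a spelling of the STAT element, occurred in 2 of 42 (4.76%), namely *Psmb8* and *Psmg1*, against 7.02%. These matches are letters in a window and are described only as such.

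The summed level of the 31 core subunit genes (*Psma1* to *Psma7*, *Psmb1* to *Psmb7*, *Psmc1* to *Psmc6* and 11 *Psmd* genes of the 19S cap) was highest in spermatogonia. In the control library it was 10270.5 CPM (10174 to 10367) in undifferentiated spermatogonia, 9414 CPM in differentiating spermatogonia, 6042 CPM in early spermatocytes, 6152 CPM in late spermatocytes, 5173 CPM in round spermatids and 3191 CPM in elongating spermatids. The Tomato-negative library gave 9562, 8801, 6364, 5801, 5485 and 3243 CPM in the same order. Neighbouring stages in the middle of this order lay close together, and early and late spermatocytes changed places between the libraries.

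The sum hid a change of make-up, because sums over the modules of the particle followed different courses after meiosis began. The 7 beta genes summed to 3465 CPM in undifferentiated spermatogonia, 2929 CPM in differentiating spermatogonia, 1480 CPM in early spermatocytes, 1269 CPM in late spermatocytes, 790 CPM in round spermatids and 235 CPM in elongating spermatids of the control. The 6 ATPase genes, which form the unfolding ring of the cap, summed to 1408, 1464, 1136, 1731, 1613 and 638 CPM over the same stages. The 7 alpha genes summed to 2425, 2201, 1102, 799, 1270 and 1704 CPM. In the control, the beta sum thus declined at each step and the ATPase sum was highest in late spermatocytes. The alpha sum was lowest in late spermatocytes and higher again in spermatids. Few genes held most of the counts behind these values. *Psma6* alone held 73.4% and 92.9% of alpha counts in round and elongating spermatids. *Psmc2* and *Psmc3* held 77.5% of ATPase counts in late spermatocytes.

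**Figure D1:**
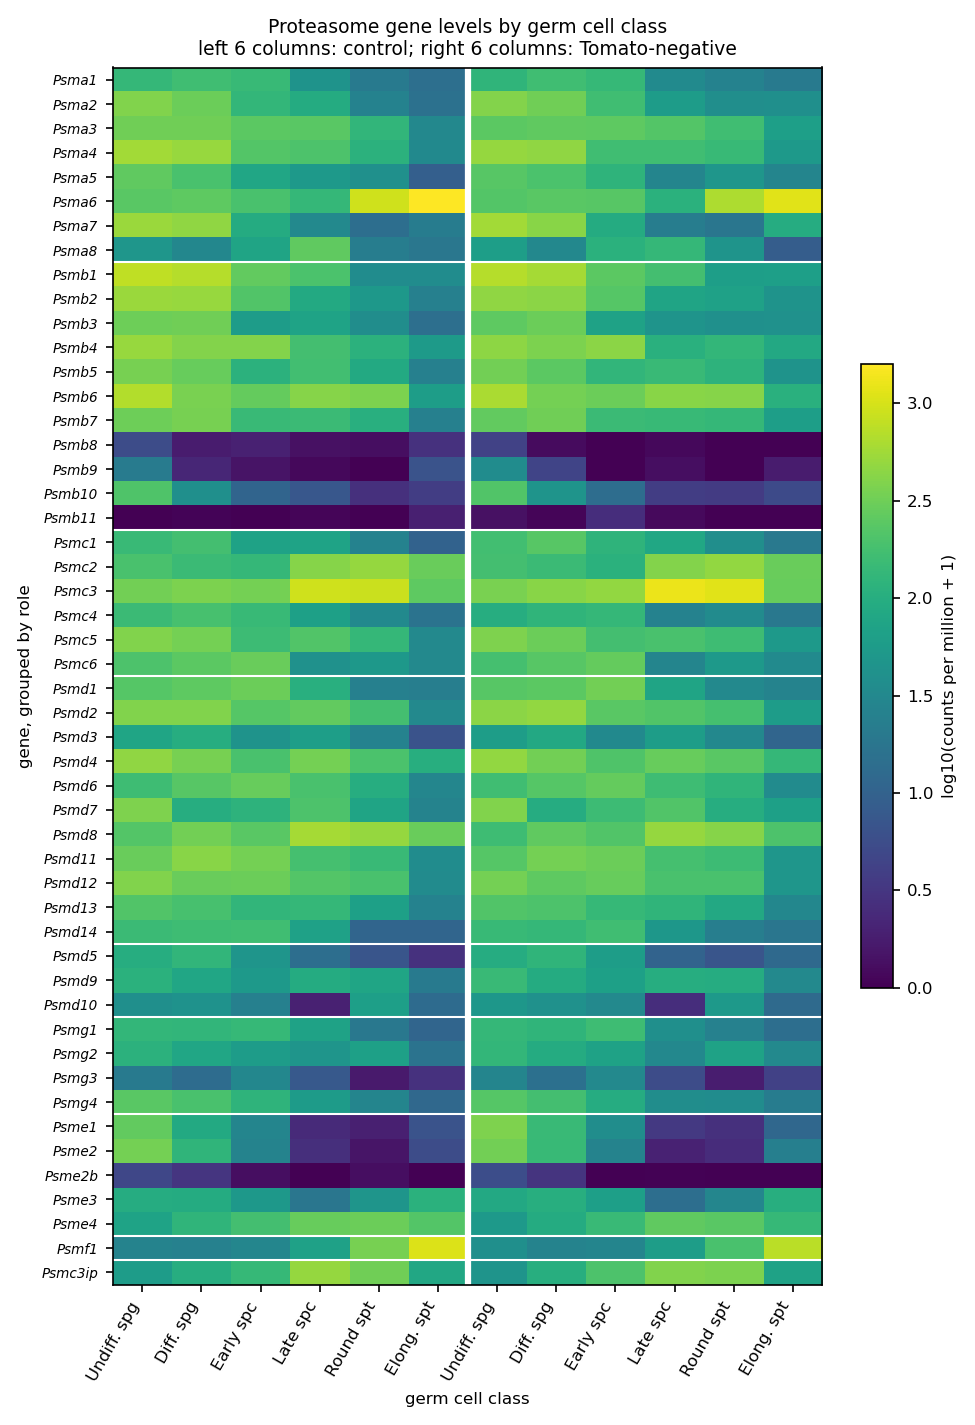
Level of each of the 50 genes (rows, grouped by role) in the 6 germ cell classes of the control library (left 6 columns) and the Tomato-negative library (right 6 columns), coloured by log10 of CPM plus 1. Most rows darken toward elongating spermatids, while *Psma6* and *Psmf1* brighten, reaching 1583 and 1059.6 CPM in control elongating spermatids.

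Single members were compared between successive stages where both stages together had at least 20 counts, and a difference of at least 2-fold was counted. From undifferentiated to differentiating spermatogonia of the control, 0 of 49 members were higher and 6 were lower, against 11.0% and 16.0% of all genes. From there to early spermatocytes 2 were higher and 17 of 47 lower, against 17.1% and 23.1%. From early to late spermatocytes 6 were higher and 16 of 47 lower, against 30.4% and 42.8%. From late spermatocytes to round spermatids 4 were higher and 18 of 46 lower, against 27.5% and 37.4%, and from round to elongating spermatids 2 were higher and 25 of 43 lower, against 16.8% and 38.2%. The share of members with higher levels was below that of all genes at each of the 5 steps. The share with lower levels was below that of all genes at the steps to differentiating spermatogonia and to late spermatocytes. It was above that of all genes at the steps to early spermatocytes and to elongating spermatids. At the step to round spermatids it was near that of all genes (18 of 46 against 37.4%). In the Tomato-negative library it was below that of all genes at this step (7 of 46 against 18.0%). With a limit of 3500 detected genes per cell, 3 members in place of 22 passed 2-fold in either direction between early and late spermatocytes. Between round and elongating spermatids 10 in place of 27 did. The shares of all genes at this limit are not given here.

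The Tomato-negative library, a separate preparation, gave 1 higher (*Psmc3ip*) and 8 lower of 49 at the first step (11.7% and 16.8% of all genes), 3 and 12 of 48 at the second (19.9% and 22.1%) and 4 and 21 of 46 at the third (23.9% and 45.2%). At the fourth step it gave 5 and 7 of 46 (29.3% and 18.0%) and at the fifth 5 and 20 of 45 (25.2% and 33.6%). Members measured in both libraries had the same sign in 46 of 49, 44 of 47, 41 of 46, 40 of 46 and 39 of 43 cases. Classes of the same name were not always the same clusters. Differentiating spermatogonia were mostly in a cluster of 1699 cells in the control and in another of 1238 cells in the Tomato-negative library. Late spermatocytes of the libraries were also mostly in different clusters. At least 2-fold lower in both were 6, 11, 15, 7 and 18 members, and at least 2-fold higher in both 0, 2, 4, 4 and 2. Such counts over all genes are not given here, so this agreement cannot be set against that of other genes.

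Of the 7 alpha genes, *Psma7* had its highest germ cell levels in spermatogonia. Its protein takes the position in the ring that PSMA8 takes in spermatocytes. In the control, *Psma7* was at 520.1 CPM in undifferentiated and 462 CPM in differentiating spermatogonia, 91.7 CPM in early and 30.9 CPM in late spermatocytes, 13.2 CPM in round and 21.2 CPM in elongating spermatids. The Tomato-negative library gave 567, 431, 90.9, 22, 17.3 and 93.5 CPM. Levels were thus high in spermatogonia and low in every later class, with the last value of the Tomato-negative library above its neighbours. *Psma7* was 5.03-fold lower in early spermatocytes than in differentiating spermatogonia of the control and 4.70-fold lower in Tomato-negative cells. The further difference between early and late spermatocytes, -1.57 on the log2 scale in the control, became 0.09 when cells with 3500 or more detected genes were left out.

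*Psma8* took the opposite course within meiosis. Its gene lies at chr18:14706151-14762301 on the plus strand. In the control it was at 47.6 CPM in undifferentiated and 29.1 CPM in differentiating spermatogonia, 72.0 CPM in early and 262 CPM in late spermatocytes, and 22 CPM in round and 17.5 CPM in elongating spermatids. Tomato-negative cells gave 60.4, 29.7, 109, 135, 45 and 7.76 CPM. Late spermatocytes held the highest level in both libraries. *Psma8* was 2.47-fold higher in early spermatocytes than in differentiating spermatogonia of the control, with a log2 difference of 1.30 (1.11 to 1.5), and 3.68-fold higher in Tomato-negative cells. The step from early to late spermatocytes was 3.63-fold in the control, with a log2 difference of 1.86 (1.73 to 2.0), while in the Tomato-negative library its interval reached 0 (0.30, -0.03 to 0.68). Round spermatids lay 11.9-fold below late spermatocytes in the control and 3.01-fold below in the other library.

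As a share of the counts of both genes, *Psma8* made up 8.38% (202 of 2410) in undifferentiated spermatogonia, 5.93% in differentiating spermatogonia, 44.0% (40.9 to 47.0) in early spermatocytes, 89.4% (10382 of 11607, 88.9 to 90.0) in late spermatocytes, 62.5% (218 of 349) in round spermatids and 45.2% (19 of 42) in elongating spermatids of the control. The share in late spermatocytes was 67.2% with a limit of 3500 genes per cell. The Tomato-negative shares were 9.62%, 6.45%, 54.5%, 86.0% (4408 of 5125), 72.2% and 7.66% (20 of 261). In elongating spermatids the shares of the libraries did not overlap, and the 10 Sertoli markers summed to 1445 CPM in the Tomato-negative elongating class against 60.9 CPM in the control one. Sertoli cells themselves, where *Psma7* was at 768 CPM, had a share of 1.53% (75 of 4889). Whether Sertoli RNA entered the elongating class was not tested.

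The class averages covered clusters that differed. Within control early spermatocytes *Psma8* was at 26.1 CPM in one cluster and 254 CPM in another, and within late spermatocytes at 478 and 121 CPM. Nearly all control late spermatocytes were in these clusters, of 517 and 401 cells. Those of the Tomato-negative library were mostly in a different cluster, of 470 cells. The late spermatocyte classes of the libraries are therefore not the same clusters, and the part of this in their *Psma8* values was not tested. When control and cKO cells were clustered together, the highest level of any cluster, 766 CPM (735 to 798), was in 116 control cells that no marker list named. Among all alpha counts (*Psma1* to *Psma8*) the gene reached 24.7% in control and 17.7% in Tomato-negative late spermatocytes, from 1.31% and 1.41% in differentiating spermatogonia.

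**Figure D2:**
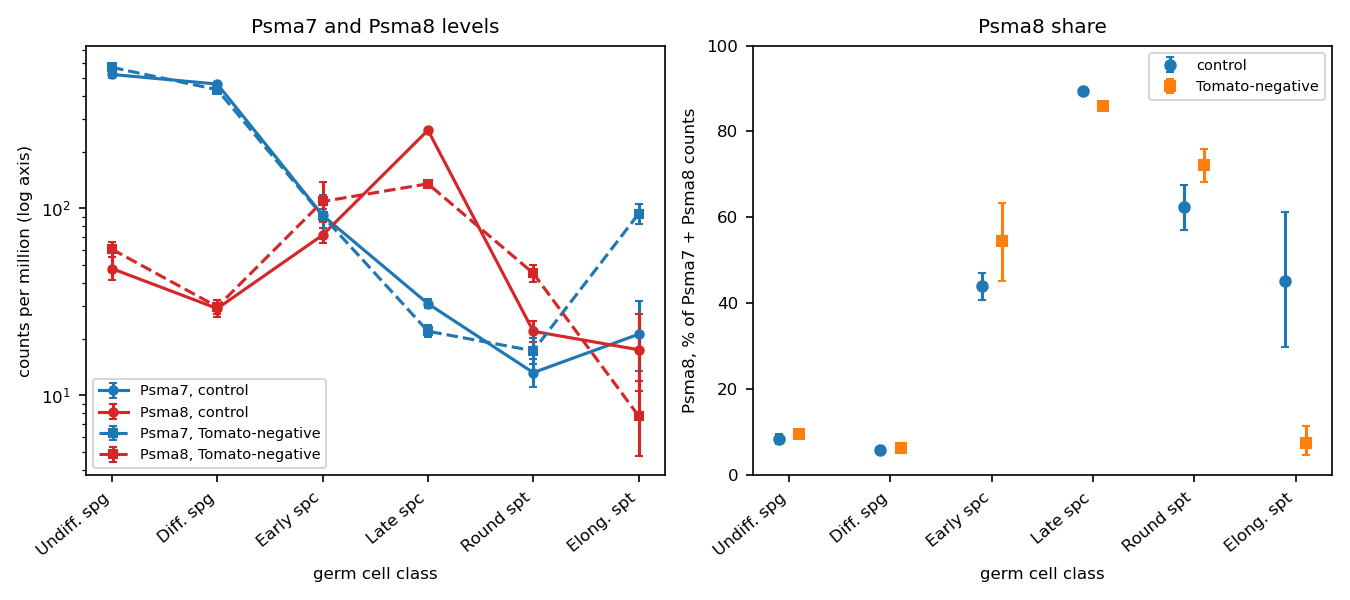
Levels of *Psma7* and *Psma8* in CPM on a log axis (left) and the share of *Psma8* in the counts of both genes in percent (right) across the 6 germ cell classes of the control (circles) and Tomato-negative library (squares), with 95% counting intervals. The share is 8.38% in control undifferentiated spermatogonia and 89.4% in control late spermatocytes, and the libraries part in elongating spermatids.

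A second alpha gene changed after meiosis. *Psma6*, a structural subunit of the ring at chr12:55384222-55418454 on the plus strand, was at 239.8, 252, 191 and 135 CPM from undifferentiated spermatogonia to late spermatocytes of the control, then at 932 CPM in round and 1583 CPM in elongating spermatids. The Tomato-negative library gave 222, 237, 231, 108, 641 and 1138 CPM. It was the one alpha gene with its highest level in spermatids. *Psma6* was 6.90-fold higher in round spermatids than in late spermatocytes of the control and 5.93-fold higher in the Tomato-negative library, and a further 1.70-fold and 1.78-fold higher in elongating spermatids.

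*Psma6* therefore came to dominate the alpha counts. Its share of *Psma1* to *Psma7* counts was 9.89% in undifferentiated and 11.4% in differentiating spermatogonia, 17.3% in early and 16.9% in late spermatocytes, 73.4% (9240 of 12585) in round and 92.9% (1717 of 1848, 91.6 to 94.0) in elongating spermatids of the control. Tomato-negative spermatids had 59.6% and 79.4%. The other alpha genes were low in control elongating spermatids, with *Psma3* at 30.4 CPM, *Psma4* at 32.3 CPM, *Psma2* at 14.8 CPM, *Psma1* at 13.8 CPM and *Psma5* at 8.30 CPM.

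Among the beta genes, single members did not all follow the sum. *Psmb1*, a structural subunit, was at 781, 693, 271, 195, 35.0 and 35.0 CPM across the control stages. *Psmb3*, another one, had the largest difference of any core gene in the control between differentiating spermatogonia and early spermatocytes, from 324 to 57.9 CPM, which was 5.59-fold lower. In the Tomato-negative library *Psmb3* was 4.41-fold lower at that step, and *Psma7* had the largest difference. *Psmb2* (529 CPM in undifferentiated spermatogonia and 24.0 CPM in elongating spermatids) and *Psmb4* (510.0 and 54.4 CPM) followed the same direction from the first to the last class.

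The cutting subunits did not move in step. *Psmb5*, which carries the chymotrypsin-like site, was at 353, 288, 112, 169, 87.3 and 24.0 CPM. *Psmb7*, which carries the trypsin-like site, was at 308, 344, 145, 152, 105 and 24.0 CPM. *Psmb6*, which carries the caspase-like site, was at 677, 363, 279, 419.9, 365 and 59.9 CPM. *Psmb6* thus kept in round spermatids about the level of differentiating spermatogonia, and was lower by 2.59 on the log2 scale in elongating spermatids. *Psmb11*, a form of the thymus, had at most 0.92 CPM in any control class and 1.62 CPM in any Tomato-negative class.

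In the cap, 2 of the 6 ATPase genes parted from the rest. *Psmc2* and *Psmc3* belong to the hexamer that unfolds substrates. *Psmc2* was at 189, 149, 136, 410.0, 496 and 293 CPM across the control stages, and *Psmc3* at 333, 373, 344, 932, 875 and 257 CPM. Tomato-negative late spermatocytes had 404 and 1286 CPM. Both were highest in late spermatocytes or round spermatids. From early to late spermatocytes *Psmc2* was 3.02-fold higher in the control and 3.69-fold higher in the other library, and *Psmc3* 2.71-fold and 2.64-fold higher. *Psmc6* went the other way, from 291 to 40.5 CPM, which was 7.20-fold lower, and 10.3-fold lower in Tomato-negative cells. Exons of *Psmc3* share bases with *Slc39a13* on the opposite strand.

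Together *Psmc2* and *Psmc3* made up 37.1%, 35.7% and 42.2% of ATPase counts in undifferentiated spermatogonia, differentiating spermatogonia and early spermatocytes of the control, then 77.5% in late spermatocytes, 85% in round and 86.3% in elongating spermatids. In Tomato-negative cells the shares were 39.2%, 39.4%, 45.7%, 84.1%, 85% and 82.7%. Among somatic classes the share ran from 35.5% in vascular smooth muscle cells to 47.7% in immune cells of the control, and from 38.9% in myoid cells to 48.3% in immune cells of the Tomato-negative library. The remaining ATPase genes *Psmc1*, *Psmc4* and *Psmc5* were at 147, 150.1 and 388 CPM in undifferentiated spermatogonia and at 9.22, 15.7 and 31.4 CPM in elongating spermatids.

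Among the 11 other cap genes, *Psmd8* and *Psmd7* stood out from the group. *Psmd8*, a subunit of the lid, was at 239 CPM in early and 594 CPM in late spermatocytes of the control, a log2 difference of 1.31, and 1.21 in Tomato-negative cells. *Psmd7*, the partner of the deubiquitinase PSMD14, was at 379 CPM in undifferentiated and 97.2 CPM in differentiating spermatogonia, 3.90-fold lower, and 4.09-fold lower in the Tomato-negative library (386 and 94.3 CPM). It was the one core gene past 2-fold at that step in the control. *Psmd14*, which removes ubiquitin chains from substrates, was at 152, 161, 165, 66.5, 10.1 and 10.1 CPM. *Psmd4*, a ubiquitin receptor, was at 464, 351, 189, 339, 198 and 99.6 CPM, and *Psmd2*, the large scaffold subunit, at 391, 395, 226, 268, 173 and 31.4 CPM. The others, *Psmd1*, *Psmd3*, *Psmd6*, *Psmd11*, *Psmd12* and *Psmd13*, had between 5.53 and 35.0 CPM in elongating spermatids.

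The cap assembly factors are chaperones of the 19S base. *Psmd10* (gankyrin), a chaperone of the ATPase ring, lies on the X chromosome at chrX:140948429-140956728 on the minus strand. It was at 38.6, 42.2, 23.7, 0.98, 62.5 and 12 CPM in the control, and at 48.1, 41.1, 30.9, 1.63, 51.3 and 11.6 CPM in the Tomato-negative library. Late spermatocytes stood far below both neighbours. *Psmd10* was 23.9-fold lower in late than in early spermatocytes and 62.8-fold higher in round spermatids than in late spermatocytes of the control, with 19.3-fold and 31.3-fold differences in the Tomato-negative library. It was the only member with an X-linked position. The autosomal chaperones *Psmd5* (97.5 CPM in undifferentiated spermatogonia and 1.84 CPM in elongating spermatids) and *Psmd9* (109.5 and 19.4 CPM) showed no such return in round spermatids.

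The 4 chaperones that assemble the core, *Psmg1* to *Psmg4*, summed to 502 CPM in undifferentiated spermatogonia, 403 CPM in differentiating spermatogonia, 342 CPM in early spermatocytes, 177 CPM in late spermatocytes, 111 CPM in round and 39 CPM in elongating spermatids of the control. *Psmg4* went from 237 to 11.1 CPM and *Psmg1* from 132 to 10.1 CPM between the first and last class. *Psmg2* was at 64.6 CPM in round spermatids, above its 45.2 CPM in late spermatocytes. *Psmg3*, whose exons share bases with a gene on the same strand, never passed 29.1 CPM in control germ cells.

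The activators changed places during development. PSME1 and PSME2 form the ring induced by interferon gamma, PSME3 forms a nuclear ring, and PSME4 (PA200) is known for its role in histone turnover in spermatids. *Psme1* was at 271, 88.0, 27.4, 1.41, 0.91 and 5.53 CPM and *Psme2* at 338, 122, 26.3, 1.69, 0.50 and 4.61 CPM across the control stages. *Psme4* was at 70.4, 123, 176, 286, 301 and 218 CPM. *Psme3* was at 93.5, 93.3, 50.5, 17.2, 46.0 and 109.7 CPM. Among germ cell classes the first pair was thus highest in undifferentiated spermatogonia. *Psme4* had its highest levels in late spermatocytes and round spermatids, and *Psme3* was lowest in late spermatocytes.

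*Psme1* and *Psme2* together held 78.8% of the counts of *Psme1* to *Psme4* in undifferentiated spermatogonia, 49.2% in differentiating spermatogonia, 19.1% in early spermatocytes, 1.01% in late spermatocytes and 0.405% in round spermatids of the control. Tomato-negative values were 83.9%, 59.8%, 22.9%, 1.23% and 1.20%. Elongating spermatids lay above round spermatids again, with 3.01% (11 of 366) in the control and 12.5% (88 of 705) in the Tomato-negative library, where *Psme2* was at 1.53 CPM in round and 23.3 CPM in elongating spermatids and Sertoli markers summed to 1445 CPM in the latter. Somatic classes of the control had shares from 60.3% in vascular smooth muscle cells to 88.4% in *Tcf21* stromal cells. Between early and late spermatocytes *Psme1* was 19.3-fold lower in the control. *Psme2b*, a copy of *Psme2* whose exons share bases with another gene on its strand, stayed at or below 3.77 CPM in control germ cells, and its reads cannot be told apart with certainty from those of *Psme2*.

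*Psmf1* (PI31), an inhibitor and transport adaptor of the core at chr2:151715812-151744186 on the minus strand, was highest in spermatids. It was at 26.2, 24.1, 28.5, 67.7, 351 and 1059.6 CPM across the control stages and at 38.2, 26.1, 27.6, 58.7, 189 and 737 CPM in the Tomato-negative library. Each of the last 3 steps was upward in both libraries. *Psmf1* was 5.18-fold higher in round spermatids than in late spermatocytes and 3.02-fold higher again in elongating spermatids of the control, against 3.22-fold and 3.90-fold in the other library. *Psmc3ip* peaked in late spermatocytes of both libraries, at 488 CPM in the control and 392 CPM in Tomato-negative cells, from 57.2 and 44.6 CPM in undifferentiated spermatogonia.

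**Figure D3:**
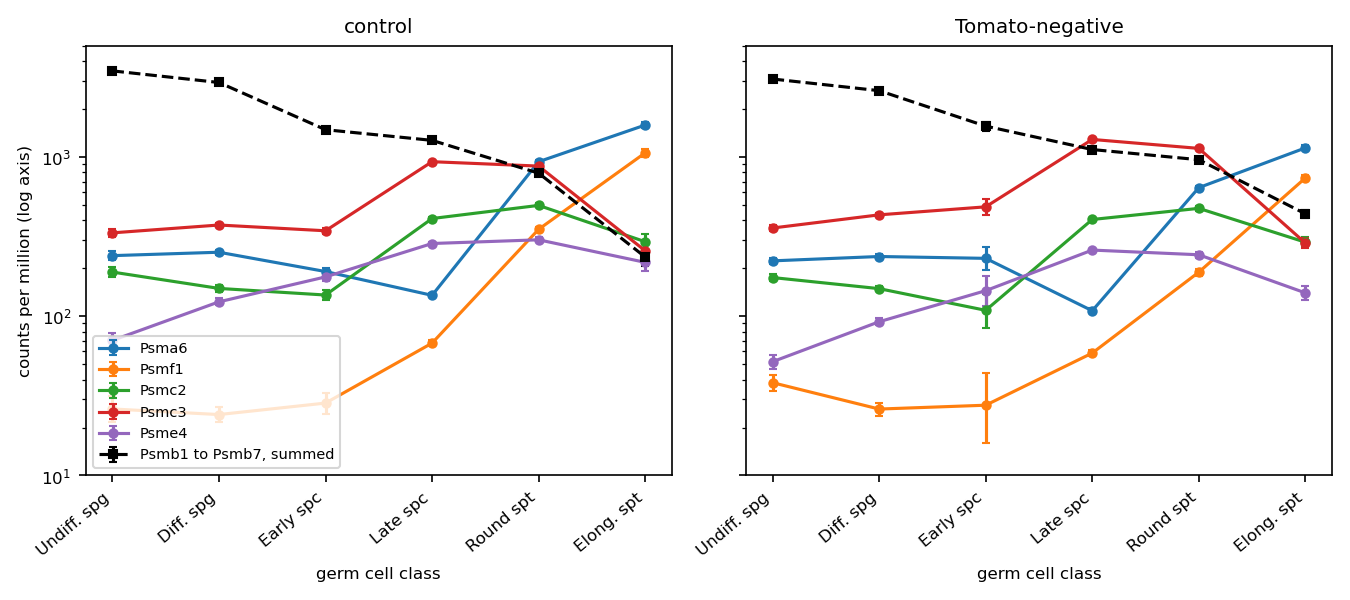
Levels in CPM (log axis) of *Psma6*, *Psmf1*, *Psmc2*, *Psmc3* and *Psme4*, and of *Psmb1* to *Psmb7* summed (black squares), across the 6 germ cell classes of the control (left) and Tomato-negative library (right), with 95% counting intervals. *Psma6* and *Psmf1* lie at 1583 and 1059.6 CPM in control elongating spermatids, where the 7 beta genes together have 235 CPM.

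The immune forms of the cutting subunits were low in germ cells, with *Psmb10* in undifferentiated spermatogonia as the exception. *Psmb10* (chr8:105935735-105938444, minus strand) was at 205 CPM in undifferentiated and 38.8 CPM in differentiating spermatogonia, 9.81 CPM in early and 6.46 CPM in late spermatocytes, and 1.82 CPM in round and 2.77 CPM in elongating spermatids of the control. Tomato-negative cells gave 215, 43.8, 13.0, 2.85, 2.59 and 4.27 CPM. In undifferentiated spermatogonia *Psmb10* had 39.98% (870 of 2176) of the counts it shared with its standard counterpart *Psmb7*, and 44.6% (1719 of 3854) in Tomato-negative cells. Differentiating spermatogonia had 10.1% and 12.2%. *Psmb10* was 5.29-fold lower in differentiating than in undifferentiated spermatogonia of the control and 4.91-fold lower in the Tomato-negative library.

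The other immune forms did not share that level. *Psmb9* (chr17:34181987-34187764, minus strand) was at 20.3 CPM in undifferentiated spermatogonia and 1.21 CPM in differentiating spermatogonia of the control, 16.3-fold lower, and at 35.1 and 3.51 CPM in Tomato-negative cells. *Psmb8* (chr17:34197721-34201454, plus strand) was at 4.48 CPM in undifferentiated spermatogonia and at most 1.84 CPM in later germ cells. Beside their standard counterparts *Psmb6* and *Psmb5* they held 2.90% and 1.25% of counts in control undifferentiated spermatogonia. The 10 immune cell markers summed to 11.8 CPM in that class, against 37919.5 to 47098 CPM in the immune classes. Exons of *Psmb9* share bases with *Tap1* on the opposite strand.

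Over all 6 cutting genes, the immune forms made up 14.7% (975 of 6654) of counts in undifferentiated spermatogonia, 3.93% in differentiating spermatogonia, 2.05% in early spermatocytes, 0.938% in late spermatocytes, 0.379% in round spermatids and 8.59% (11 of 128) in elongating spermatids of the control. Immune markers summed to 520 CPM in that last class. Tomato-negative germ cells had 17.3%, 5.0%, 2.19%, 0.469%, 0.389% and 2.35%.

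Somatic classes spanned a wide range of that share. In the control it was 79.7% (452 of 567) in immune cells, 57.5% (153 of 266) in *Tcf21* stromal cells, 33.6% (38 of 113) in vascular smooth muscle cells and 16.7% in myoid cells. In the Tomato-negative library it was 55.7% in immune cells, 47.2% (226 of 479) in endothelial cells, 22.4% in *Tcf21* stromal cells, 13.3% in myoid cells, 13.2% in vascular smooth muscle cells, 5.34% in Sertoli cells and 5.0% (3 of 60) in Leydig cells. Immune cells were highest in each library, but in the Tomato-negative library their interval (48.8 to 62.3) overlapped that of endothelial cells (42.6 to 51.8). The same classes had different shares in the libraries. *Psmb8* carried most of the range. It was at 939 CPM in immune cells and 209 CPM in *Tcf21* stromal cells of the control. In the Tomato-negative library it was at 201 CPM in endothelial cells and 1.59 CPM in Sertoli cells. Immune cells did not lead endothelial cells in *Psmb8* there. Over the other somatic classes it was at 1.897 in immune and 2.104 in endothelial cells on the log2 scale, with overlapping intervals. In endothelial cells 5 of 10 immune markers had UMIs, and they summed to 26.9 CPM.

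**Figure D4:**
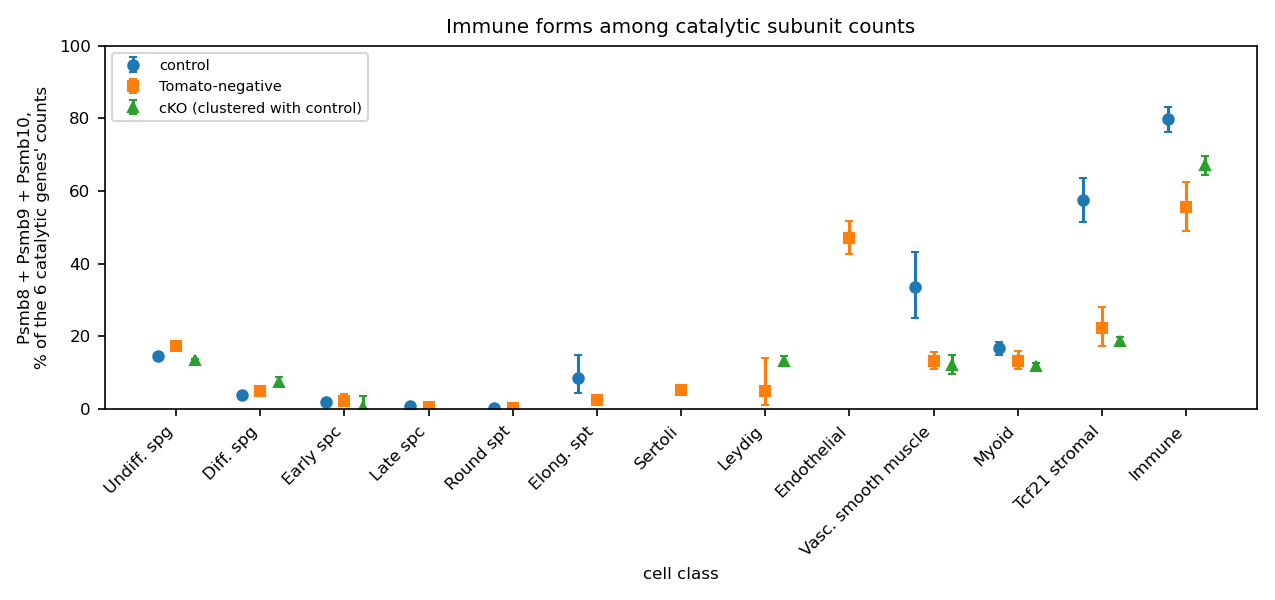
Share of *Psmb8*, *Psmb9* and *Psmb10* in the counts of the 6 cutting subunit genes, in percent, for each germ cell and somatic class of the control, Tomato-negative and cKO libraries, with 95% counting intervals. Immune cells are highest in each library (79.7% in the control), with an interval that overlaps that of endothelial cells in the Tomato-negative library. Undifferentiated spermatogonia are the highest germ cell class and *Tcf21* stromal cells of the control are at 57.5%.

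The standard subunits were less uneven among somatic classes. Each somatic class was compared with the other somatic classes of its library. Sertoli cells had 12 of 48 members at least 2-fold higher and 3 lower, against 30.1% and 22.8% of all genes, and Leydig cells of the Tomato-negative library 17 and 3, against 32.3% and 20.6%. Only 30 Leydig cells with a median of 1416 UMIs were kept there. The core sum was 7577 CPM in Leydig cells, 7083 CPM in Sertoli cells, 4892 CPM in myoid cells, 4308 CPM in endothelial cells, 4281 CPM in vascular smooth muscle cells, 3469 CPM in *Tcf21* stromal cells and 2440 CPM in immune cells. In the cKO library 195 Leydig cells had 7293 CPM. All 31 core genes lay above the mean of the other somatic classes there, as did 55.7% of all genes. In that comparison 3 of 49 members were past 2-fold higher and 2 lower (16.6% and 18.6%).

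In Sertoli cells *Psma7* was at 768 CPM, *Psmd7* at 591 CPM and *Psmd4* at 509 CPM, while *Psme1* was at 43.1 CPM. *Psme1* was at 664 CPM in Leydig cells. Its ring partner *Psme2* was at 142 CPM in Sertoli and 151 CPM (72.4 to 278) in Leydig cells, with overlapping intervals. In the Tomato-negative library endothelial cells had 2 higher and 1 lower of 48 (13.6% and 27.5%), vascular smooth muscle cells 0 and 3 (9.41% and 30.8%), myoid cells 0 and 1 (11.1% and 25.3%), *Tcf21* stromal cells 0 and 4 (10.5% and 26.3%) and immune cells 3 and 21 (11.1% and 43.8%).

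In the control, vascular smooth muscle cells had 2 of 48 higher and 4 lower (16.4% and 21.3%), myoid cells 0 and 5 (11.2% and 14.6%), *Tcf21* stromal cells 0 and 2 (12.6% and 18.2%) and immune cells 6 and 2 (15.8% and 32.2%). In the cKO library these were 1 and 3 of 49 (12.1% and 19.7%), 0 and 4 (10.0% and 19.4%), 0 and 3 (7.28% and 19.1%) and 4 and 6 (11.6% and 36.3%). In the control and cKO libraries *Psme4* was the member that led the vascular smooth muscle class over the other somatic classes, at 170.2 CPM in the control and 123 CPM in cKO cells.

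Averaged over classes, germ cells exceeded somatic cells in 11 of 49 members by at least 2-fold and were lower in 5 in the control (38.0% and 23.7% of all genes). The members with higher levels were *Psma6*, *Psma8*, *Psmc2*, *Psmc3*, *Psmc3ip*, *Psmd2*, *Psmd5*, *Psme3*, *Psme4*, *Psmf1* and *Psmg1*. Those with lower levels were *Psmb8*, *Psmb9*, *Psmb10*, *Psme1* and *Psme2b*. In the Tomato-negative library 11 were higher and 3 lower (39.5% and 24.4%), and in the cKO library, whose germ cells are mostly spermatogonia, 17 and 2 (35.8% and 29.5%). The highest ratio was that of *Psmf1* in the control (4.11 on the log2 scale) and of *Psma8* in the Tomato-negative and cKO libraries (4.21 and 4.05). *Psmb8* was the lowest in all 3, at -7.76, -6.72 and -5.81.

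The cKO and control libraries were compared within classes named after clustering both together, with 1.5-fold as the size counted. Undifferentiated spermatogonia, of which 820 cKO and 283 control cells were kept, had 0 of 49 members past it in either direction, against 7.33% higher and 10.4% lower among all genes. This count was 24 with a limit of 3500 genes per cell, 10 with no upper limit and 5 after thinning to 1000 UMIs per cell. The shares of all genes under these settings are not given here. Core genes ranged from -0.17 (*Psmc3*) to 0.34 (*Psmc1*) on the log2 scale, and their sum was 10950 CPM in the cKO and 10138 CPM in the control library. *Psme4* was the lowest member at -0.44, with 50.8 CPM in the cKO and 68.8 CPM in the control. The immune share was 13.4% in the cKO and 15.7% in the control, and the *Psma8* share 8.42% and 8.64%.

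Differentiating spermatogonia, with 121 cKO and 1285 control cells, had 10 of 46 members higher and 0 lower, against 16.3% and 18.9% of all genes. A larger cluster of 1260 cKO and 908 control cells, with this class as its best match, was left unnamed and out of the comparison. The class also differs from the 1738 control cells of the stage results, which came from the other clustering. *Psmb10* was at 84.5 CPM in the cKO and 29.5 CPM in the control (log2 difference 1.52, 1.17 to 1.86), *Psme1* at 134 and 60.6 CPM and *Psme2* at 162 and 73.3 CPM, both 1.14 on the log2 scale. These are genes with higher levels in undifferentiated than in differentiating spermatogonia. The others were *Psma2*, *Psma5*, *Psmb3*, *Psmd2*, *Psmd7*, *Psmd9* and *Psmg4*. In this class the 10 markers of undifferentiated spermatogonia summed to 167 CPM in the cKO and 33.7 CPM in the control and the 12 of early spermatocytes to 2411 and 4126 CPM, and the part of this in the differences was not tested. Without integration of the libraries 2 members were past the size in place of 10.

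In early spermatocytes, with 49 cKO and 900 control cells, 6 of 45 members were higher and 3 lower (16.4% and 22.2% of all genes). *Psma8* was at 35.6 CPM in the cKO and 90.1 CPM in the control (-1.27, -2.41 to -0.45), and its share was 34.5% (10 of 29, 17.9 to 54.3) against 70.5% (377 of 535). In the clustering with Tomato-negative cells the control value for early spermatocytes was 44.0% (455 of 1035), within the interval of the cKO share, so the size of this difference depends on how the class was drawn. *Psme1* was at 46.2 and 13.6 CPM (1.80). The other members past the size were *Psma7*, *Psmb1*, *Psmd5*, *Psme2* and *Psmg1*, which were higher, and *Psmd3* and *Psmd9*, which were lower. Without integration 3 members in place of 9 were past the size. No later germ cell class of the cKO library reached 30 cells.

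**Figure D5:**
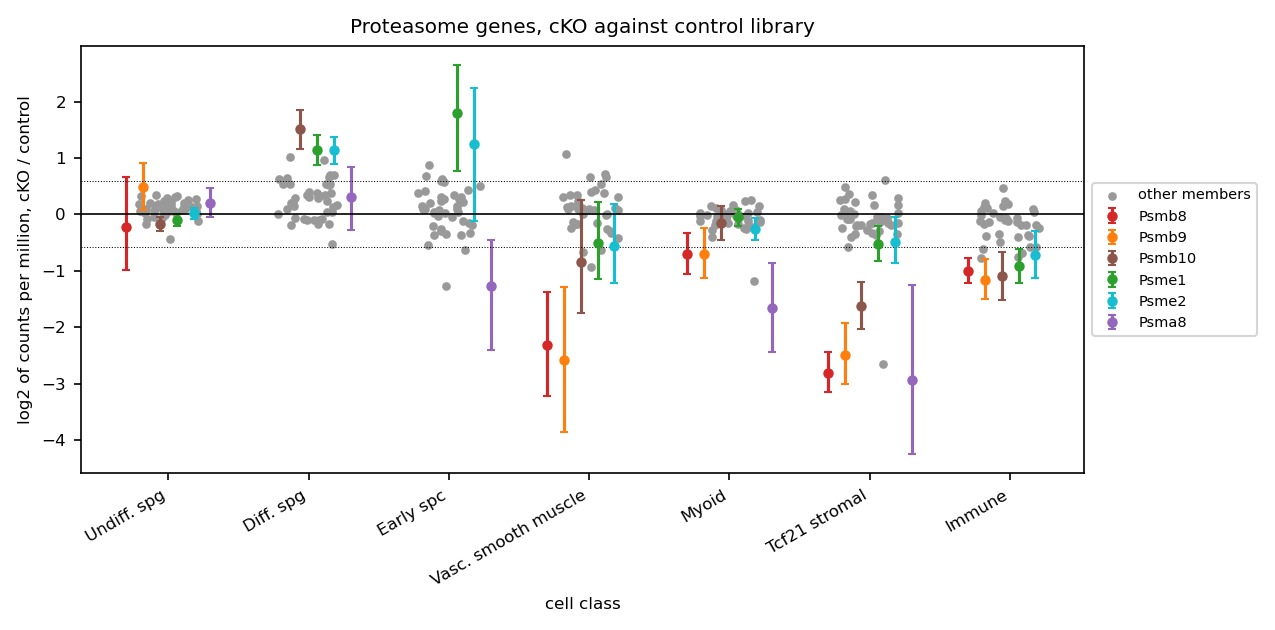
Log2 ratio of CPM in the cKO over the control library for each member (points) in 7 cell classes, with 6 members in colour and their 95% counting intervals. Dotted lines mark 1.5-fold. *Psmb8* and *Psmb9* lie below the lower line in the immune, myoid, *Tcf21* stromal and vascular smooth muscle classes, at -2.81 and -2.49 in *Tcf21* stromal cells.

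Among somatic cells, *Psmb8* and *Psmb9* were past 1.5-fold lower in the cKO library in each of the 4 classes compared, beside other members. *Tcf21* stromal cells had 1598 cKO and 110 control cells, with 1 of 48 members higher (*Psmg3*) and 5 lower (15.2% and 23.5% of all genes). *Psmb8* was at 35.7 CPM in the cKO and 249 CPM in the control, 7.01-fold lower (-2.81, -3.15 to -2.45). *Psmb9* was at 18.4 and 103 CPM, 5.63-fold lower, and *Psmb10* at 50.4 and 155 CPM, 3.10-fold lower. Their standard counterparts *Psmb5*, *Psmb6* and *Psmb7* did not pass 1.5-fold. The immune share was 18.6% (17.5 to 19.7) in the cKO and 57.4% (51.7 to 62.9) in the control, and 22.4% in Tomato-negative cells of the class. The other members with lower levels were *Psma8* and *Psmc3ip*. After thinning to 1000 UMIs per cell, 16 members in place of 6 were past 1.5-fold, and the share of all genes after thinning is not given here.

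Values of other cell types moved with this class. The 10 immune markers summed to 13.4 CPM in cKO and 152 CPM in control *Tcf21* stromal cells, where 5 of 10 had UMIs and *Ptprc*, *C1qa*, *Adgre1*, *Laptm5* and *Lyz2* were at 0. The 12 late spermatocyte markers summed to 161 and 629 CPM. Their part in the result was not tested. In the control cells of the class as clustered with the Tomato-negative library, immune markers summed to 25 CPM and *Psmb8* was at 209 CPM.

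Vascular smooth muscle cells, with 160 cKO and 39 control cells, had 4 of 44 members higher and 6 lower (17.6% and 17%). *Psmb8* was at 26.2 CPM in the cKO and 129.9 CPM in the control, 4.98-fold lower, and *Psmb9* at 13.1 and 77.9 CPM, 5.96-fold lower. Immune markers summed to 21.8 and 19.5 CPM there. *Psma7*, *Psmb2*, *Psmc4* and *Psmd3* were higher in the cKO, and *Psmb10*, *Psmd6*, *Psmd10* and *Psmg2* lower. With at least 100 counts required, 4 members in place of 10 were past 1.5-fold.

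Immune cells, with 274 cKO and 140 control cells, had 0 of 44 members higher and 10 lower (19.7% and 21.8%). *Psmb8* was at 459 CPM in the cKO and 915 CPM in the control, 2.0-fold lower. *Psmb9* was at 167 and 372 CPM, *Psmb10* at 118 and 253 CPM and *Psme1* at 257 and 485 CPM. The cKO class joined clusters of 220 and 54 cells, with *Psmb8* at 515 and 307 CPM, whereas 139 control cells were in the first, at 923 CPM. The other members with lower levels were *Psma4*, *Psmc2*, *Psmc3*, *Psmd9*, *Psme2* and *Psme4*. Myoid cells had 0 of 48 members higher and 4 lower (9.42% and 14.2%), namely *Psma8*, *Psmb8*, *Psmb9* and *Psmc3ip*, with *Psmb8* at 18.1 CPM in the cKO and 29.5 CPM in the control. Late spermatocyte markers summed to 382 CPM in cKO and 777 CPM in control myoid cells, and most control and most cKO myoid cells were in different clusters.

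Genes that act with the proteasome were read from lists chosen by function. Of 14 genes of antigen presentation and the interferon response, 1 was higher and 6 of 11 measured were lower in differentiating than in undifferentiated spermatogonia of the control, beside 11.0% and 16.0% of all genes. Between cKO and control, 1 was higher and 10 of 13 were lower in *Tcf21* stromal cells (median -1.45 on the log2 scale), beside 15.2% and 23.5% of all genes. In vascular smooth muscle cells 0 were higher and 10 of 12 lower (-1.70, beside 17.6% and 17%), in immune cells 0 and 12 of 14 (-1.04, beside 19.7% and 21.8%) and in myoid cells 2 and 4 of 13 (-0.42, beside 9.42% and 14.2%). Germ cells had 3 higher and 2 lower of 13 in undifferentiated spermatogonia (7.33% and 10.4%), 3 and 1 of 10 in differentiating spermatogonia (16.3% and 18.9%) and 1 and 0 of 6 in early spermatocytes (16.4% and 22.2%). The peptide transporter gene *Tap1* was at 14.6 CPM in cKO and 94.2 CPM in control *Tcf21* stromal cells, and the light chain gene *B2m* at 280.2 and 737 CPM. *Irf1*, which encodes an interferon response factor, was higher by less than 1.5-fold, at 444 and 319 CPM, and is not the gene counted as higher. The list contains genes of the same response as *Psmb8* and *Psmb9*, so its counts describe the same libraries and are not separate evidence.

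Of 6 listed ubiquitin genes, 1 was at least 2-fold higher and 5 were lower in late than in early spermatocytes of the control. Their median was -2.25 on the log2 scale, and the shares of all genes were 30.4% and 42.8%. The higher one was *Ubb*, at 459 CPM in early and 1655 CPM in late spermatocytes. *Rps27a*, which encodes ubiquitin fused to a ribosomal protein, was at 1932 and 942 CPM. *Nfe2l1*, which encodes the transcription factor that induces proteasome genes, was at 203, 179, 144, 19.1, 4.54 and 13.8 CPM across the control stages, and *Nfe2l2*, its relative in the antioxidant response, at 59.1, 72.4, 23.7, 0.68, 9.89 and 12.9 CPM. Both were low from late spermatocytes on.

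Of 11 measured partners of the particle, 1 was higher and 5 were lower in late than in early spermatocytes, beside 30.4% and 42.8% of all genes, among them *Usp14*, a deubiquitinase of the cap, at 131 and 42 CPM. Of 12 genes that deliver substrates 2 were higher and 5 lower. Both lists had a share of lower genes near that of all genes. Of 18 ubiquitin pathway genes known from the testis, 12 were at least 2-fold higher in germ than in somatic classes of the control and 1 was lower, beside 38.0% and 23.7% of all genes. Among these, *Usp2*, a deubiquitinase, was at 44.3 CPM in early and 681 CPM in late spermatocytes, and *Klhl10*, a ubiquitin ligase adaptor, reached 254 CPM in round spermatids. *Huwe1*, a ubiquitin ligase, was at 365 CPM in early and 3.98 CPM in late spermatocytes. *Uchl1*, a deubiquitinase of spermatogonia, was at 1058 CPM in undifferentiated spermatogonia and 15.1 CPM in late spermatocytes.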

How the data were processed

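Per the labels, the authors counted UMIs with Cell Ranger 2.1.1 against GRCm38, and deposited these counts unscaled, as 1 table of genes by cells for each sample. Kept cells had over 200 and under 7500 detected genes and under 10% mitochondrial counts (5085 Tomato-negative, 5975 control and 7016 cKO cells). The study's methods state 3500 as the upper limit. The limit of 7500 was chosen with earlier results known, since 3500 keeps 5826 cells of the file with the somatic-enriched sample where 7500 keeps 11209, and 3500 was run as an alternative.

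Clustering in Seurat 5.3.0 on R 4.3.3 followed the study's settings: Tomato-negative with control cells and the 149 cKO-barcode cells (15 components, resolution 0.3), and control with cKO cells after anchor integration (20 dimensions, resolution 0.5). Germ and somatic clusters were clustered again at resolutions 0.3 and 0.08. The 50 genes were kept out of the variable genes. Clusters were named from marker lists. Clusters without a name held 2.39% of control and 16.5% of Tomato-negative cells, and 27.7% of control and 24.3% of cKO cells when that pair was clustered. Scrublet in scanpy 1.11.5 called 3.42% to 4.62% of cells doublets, which were kept, and an alternative dropped them.

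UMIs were added up over the cells of each class with at least 30 cells in a library. Intervals, all at 95%, are exact Poisson for CPM, Clopper-Pearson for shares and conditional binomial for ratios. Ratios used 0.5 added to each count and needed 20 counts. With 1 library per group no test was run, whereas the study tested over cells. Only the intervals and ratios were checked on simulated data, which held counting error alone. Filtering, clustering and naming were not checked in this way. Genes named throughout are *Psma7*, *Psma8*, the catalytic and immune beta genes, *Psmb11*, *Psmd10*, *Psmd14*, *Psmc3ip*, the activators, the inhibitor and the core assembly factors, with the 3 highest and 3 lowest members of a comparison, ordered by whichever interval end lies closer to no change. The members and lists were chosen with earlier results of these data known, and other members are named where a count turns on them, after their values were seen.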

Additional observations from a re-analysis of the deposited data

Results flagged for a closer look

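Some members differed in opposite directions in the libraries or classes compared. None of these differences was tested, because each group is 1 library. Between early and late spermatocytes the log2 difference of *Psmb3* was 0.27 in the control and -0.64 in the Tomato-negative library. Between late spermatocytes and round spermatids it was -0.40 and 0.75 for *Psma5*, -0.66 and 0.26 for *Psmb4*, -1.01 and 0.45 for *Psmc4* and 0.077 and -0.10 for *Psme4*, control first.

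For the cKO over the control library, *Psmb10* was at 1.52 on the log2 scale in differentiating spermatogonia, -1.63 in *Tcf21* stromal cells and -1.10 in immune cells. *Psme1* was at 1.14 in differentiating spermatogonia, 1.80 in early spermatocytes and -0.92 in immune cells, and *Psme2* at 1.14 in differentiating spermatogonia and -0.73 in immune cells. *Psmd9* was at 0.70 in differentiating spermatogonia and -1.28 in early spermatocytes.

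A cluster of 116 control cells outside every named class had *Psma8* at 766 CPM, above all named classes.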

How the results depend on the processing

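No paired analysis was possible because each group is 1 library. Over the alternatives, 207 of the main values and counts were within their limits and 22 moved, and of the values of single named genes 116 were within, 39 moved and 3 changed direction. The causes were not tested, and the shares of all genes under the alternatives are not given beside the counts of members. With the limit of 3500 genes the log2 difference of *Psma7* between early and late control spermatocytes was 0.087 in place of -1.57, that of *Psmg1* between cKO and control undifferentiated spermatogonia -0.17 in place of 0.32, and 3 members in place of 22 passed 2-fold between early and late spermatocytes, 10 in place of 27 between round and elongating spermatids and 24 in place of 0 passed 1.5-fold between cKO and control undifferentiated spermatogonia. The *Psma8* share in late spermatocytes was then 67.2% in place of 89.4%. With no upper limit these were 11, 10 and 88.7% for the elongating step, the undifferentiated spermatogonia and the late share, and the early share was 49.9% in place of 44.0% (39.6% as a mean over cells). At a higher resolution *Psme4* between late spermatocytes and round spermatids was -0.13 in place of 0.08.

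Thinned to 1000 UMIs per cell, 11 members in place of 22 passed at the round step and 15 in place of 27 at the elongating step of the control, and between cKO and control 5 in place of 0 in undifferentiated spermatogonia, 2 in place of 4 in myoid cells and 16 in place of 6 in *Tcf21* stromal cells. Thinning gave a *Psma8* share of 91.2% in late spermatocytes and immune shares of 41.5% in endothelial cells (47.2%) and 3.88% in Sertoli cells (5.34%). With at least 100 counts 4 members in place of 10 differed between cKO and control vascular smooth muscle cells. Without integration 2 in place of 10 differed in differentiating spermatogonia and 3 in place of 9 in early spermatocytes. Over all cells of the merged file 14 in place of 24 members separated immune cells from other somatic classes, and the immune share there was 73.0% in place of 55.7%. Depth limits the classes of 30 to 49 cells most, and low members such as *Psmb11* and *Psme2b* could not be compared in most classes.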
